A study of Mus musculus with 18 samples.

Results

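The comparison described here asks which transcripts of the mouse caput epididymis still differed after ethanol had been stopped, at either dose. It set the 6 libraries of ethanol-exposed C57BL/6J mice collected after cessation (3 labelled 6% EtOH and 3 labelled 10% EtOH) against the 3 control libraries of the cessation arm. These 9 libraries were chosen by their treatment label from a series of 18. The other 9 libraries were collected at 10 weeks (3 of 6% EtOH, 3 of 10% EtOH and 3 controls) and serve here only to show how the ethanol difference looked at that time. Cessation lasted 1 month, as the title of the series gives it. How and for how long ethanol was given, how old the mice were after cessation and whether any shared a litter or cage is not stated in the labels. The labels do give animal identifiers. The p-values reflect the spread between these libraries, part of which may be technical. All 18 libraries were total RNA of the whole caput, and no allele beyond the C57BL/6J strain is labelled.

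The caput is the first part of the epididymis, the duct in which sperm leaving the testis acquire the ability to move and fertilise. Its principal cells secrete lipocalins, beta-defensins, antioxidant enzymes and RNA-carrying vesicles into the lumen, basal and clear cells line the same epithelium, and macrophages and other dendritic antigen-presenting cells lie at its base. Interferons act through STAT transcription factors on a set of target genes (guanylate-binding proteins, immunity-related GTPases, the immunoproteasome, the peptide transporter and MHC genes) that process and present antigen. In bulk tissue, fewer cells of a type and less RNA per cell cannot be told apart.

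No gene passed the test between the 6 EtOH and the 3 control libraries after cessation. Of 17728 genes tested with edgeR's quasi-likelihood test on the deposited counts, 0 (0%) had a Benjamini-Hochberg adjusted p under 0.05, and the smallest adjusted p was 1.0, so that every gene below has an adjusted p of 1.0 in this comparison unless another is given. An unadjusted p under 0.05 was found for 184 genes (1.04%), 78 of them higher after EtOH (0.440%) and 106 lower (0.598%), where a uniform spread of p-values would give 886. DESeq2 and limma-voom with sample quality weights also called 0 genes, with 244 and 2318 genes at an unadjusted p under 0.05. Tested dose by dose against the shared controls, edgeR called 0 genes for 6% EtOH (0.694% at an unadjusted p under 0.05) and 0 for 10% EtOH (2.63%), and 0 genes separated 10% EtOH from 6% EtOH (3.31%). Groups without overlap, in which every EtOH library lay on one side of every control library, were found for 130 genes (0.733%), 71 with EtOH higher (0.400%) and 59 with EtOH lower (0.333%). A p that misses the threshold does not show that the groups were alike, and the values below are given as measured differences, none of them past the threshold.

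The libraries held 10719320 to 17197177 counted reads after cessation and 15599991 to 21067237 at 10 weeks. The spread between libraries was wide: the biological coefficient of variation common to all genes was 31.6% in the cessation comparison, against 17.5% in the 10-week comparison. Estimated within groups it was 30.0% among the 6 EtOH libraries and 35.0% among the 3 controls after cessation. The first principal component carried 39.6% of the variance and set 6% EtOH replicate 1 (-67.2) and control replicate 3 (-66.6) at one end and 10% EtOH replicate 1 (45.1) and control replicate 2 (59.9) at the other, so it did not follow the treatment. The caput markers were abundant in all 9 libraries: Gpx5, the secreted glutathione peroxidase of the caput, ranged from 18186 to 45339 CPM (reads scaled to the total of the library) after EtOH and from 17704 to 42915 CPM in controls, and the lipocalin Lcn8 from 2545 to 5892 CPM after EtOH and from 2646 to 5979 CPM in controls. The table for 6% EtOH replicate 1 carries another animal identifier in its column header than the title of that sample does, so values without that library are also given for several results that lean on it.

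The 20 genes described first are the 10 higher and the 10 lower genes with the smallest p among those without overlap whose mean log2 CPM was 1 or more. The non-overlap is therefore part of how they were picked. Among the 10 higher genes, 2 belong to cilia. Iqcg, a protein of motile cilia and flagella, had 14.1, 8.01 and 9.80 CPM in 6% EtOH libraries, 7.29, 8.40 and 8.04 CPM in 10% EtOH libraries, and 4.66, 4.87 and 5.36 CPM in controls. The lowest EtOH library lay above the highest control, and 6% EtOH replicate 1 stood above the other 5 EtOH libraries. The mean was 9.27 ± 2.50 CPM after EtOH (SD, n = 6) and 4.96 ± 0.36 CPM in controls (SD, n = 3), a log2 fold change of 0.90 ± 0.25 (SE). Tmem231, a component of the transition zone at the base of cilia, had 20.2 to 29.9 CPM after EtOH (median 22.2) and 17.2, 19.8 and 12 CPM in controls, with a log2 fold change of 0.50 ± 0.19. The highest control and the lowest EtOH library were close to each other for Tmem231, and without control replicate 3 the log2 fold change was 0.30.

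Notch3, the Notch receptor of vascular smooth muscle and pericytes, had 43.3, 38.9 and 46.8 CPM in 6% EtOH libraries, 42.9, 42.3 and 40.6 CPM in 10% EtOH libraries, and 32.8, 33.8 and 33.4 CPM in controls. Both groups were tight, and the log2 fold change was 0.35 ± 0.11 with almost the same value at each dose (0.37 for 6% EtOH and 0.33 for 10% EtOH). Vezt, a transmembrane protein of adherens junctions, had 29.3 to 32.7 CPM after EtOH (median 31.2) and 24.6, 25 and 25.6 CPM in controls, a log2 fold change of 0.31 ± 0.11. For Vezt, 6% EtOH gave 0.33 and 10% EtOH gave 0.29. A value above 0 at each dose follows from the non-overlap by which both genes were picked. Across all the alternatives tried, Notch3 had a log2 fold change between 0.32 and 0.38 and Vezt between 0.29 and 0.33. Those fits reuse the libraries by which the genes were picked, so they are not separate support.

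Topaz1, a gene known from the male germ line of the mouse, had 3.63, 3.94 and 8.54 CPM in 6% EtOH libraries, 3.51, 5.65 and 4.17 CPM in 10% EtOH libraries, and 2.63, 2.77 and 2.37 CPM in controls, with a log2 fold change of 0.91 ± 0.34. Its highest value, in 6% EtOH replicate 3, was well above the other EtOH libraries. Fam161b, a relative of a ciliary protein of the retina, had 2.33 to 5.30 CPM after EtOH (median 2.66) and 0.919, 1.73 and 1.74 CPM in controls. Its log2 fold change of 1.13 ± 0.39 was the largest of the 10, at a level near the low end of what was tested. The other 4 higher genes were 9030407P20Rik (log2 fold change 0.70), Ogfrl1 (0.43), Pdzk1ip1 (0.39) and Gm28166 (0.76). Pdzk1ip1, a small membrane protein of epithelia, had different values at each dose (0.21 for 6% EtOH and 0.56 for 10% EtOH; the difference between the doses was 0.35, and over all genes the smallest adjusted p of that difference was 0.894 by edgeR).

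Col6a4, a chain of collagen VI, had the smallest p of the 10 lower genes picked without overlap. It had 240, 245 and 240 CPM in 6% EtOH libraries, 172, 168 and 217 CPM in 10% EtOH libraries, and 273, 284 and 391 CPM in controls. Every EtOH library lay below every control, and the 10% EtOH libraries lay below the 6% EtOH libraries. The mean was 214 ± 35.3 CPM after EtOH (SD, n = 6) and 316 ± 64.9 CPM in controls (SD, n = 3), a log2 fold change of -0.56 ± 0.18, or -0.39 for 6% EtOH and -0.77 for 10% EtOH. Fn1, fibronectin, the glycoprotein that links cells to the matrix, had 58.1, 51.1 and 47.1 CPM in 6% EtOH libraries, 42.3, 33.7 and 51.0 CPM in 10% EtOH libraries, and 65.2, 65.8 and 64.3 CPM in controls. The 3 controls of Fn1 were almost equal and the EtOH libraries spread below them, with a log2 fold change of -0.46 ± 0.15.

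Syne1, which encodes the nuclear envelope protein nesprin-1, had 723 to 951 CPM after EtOH (median 857) and 1133, 1064 and 1271 CPM in controls, a log2 fold change of -0.45 ± 0.16. Mical2, an actin-oxidising enzyme, had 49.1 to 65.1 CPM after EtOH (median 61.3) and 71.9, 76.1 and 70.8 CPM in controls, a log2 fold change of -0.31 ± 0.12. Both genes act on the cytoskeleton and its anchoring. Lrp4, a co-receptor of the Wnt and agrin pathways, had 103 to 122 CPM after EtOH (median 112) and 134, 138 and 132 CPM in controls, with the smallest difference of the 10 (-0.26 ± 0.11). Btaf1, an ATPase that removes TATA-binding protein from DNA, had a log2 fold change of -0.41 ± 0.13, and the linker histone gene H1f1 one of -0.63 ± 0.24. The last 3 were Adamtsl3 (-0.46), Dusp15 (-0.45) and Xlr4a (-0.47). Xlr4a belongs to a multicopy family of the X chromosome, so the way reads were divided among its copies makes its count uncertain.

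**Figure D1:**
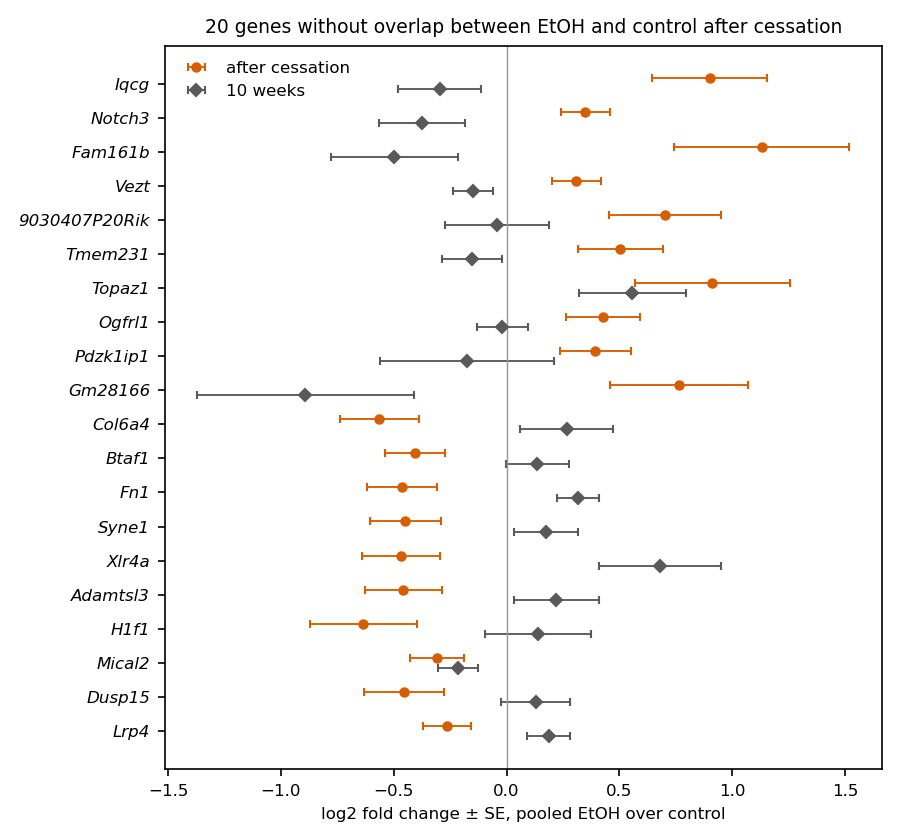
Log2 fold changes of EtOH over control (points, with bars of 1 SE from the edgeR fit) for the 10 higher and 10 lower genes after cessation and for the same genes at 10 weeks. After cessation they run from -0.63 for H1f1 to 1.13 for Fam161b, and 18 of the 20 have the opposite sign at 10 weeks.

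Most of these genes did not point the same way at 10 weeks, in comparisons that have separate controls. Of the 20 genes, 18 had the opposite sign at 10 weeks, 9 of the 10 higher and 9 of the 10 lower. Over all 16746 genes tested at both times, 48.7% had the same sign. Fn1 is the clearest case: at 10 weeks it had 41.7, 41.1 and 47.2 CPM in 6% EtOH libraries, 46.0, 52.6 and 45.8 CPM in 10% EtOH libraries, and 34.7, 38.8 and 36.7 CPM in controls. EtOH lay above control without overlap then, with a log2 fold change of 0.32 ± 0.09 (edgeR, adjusted p = 0.131), and below it after cessation. The difference between the EtOH effect after cessation and that at 10 weeks was -0.79 ± 0.18 (edgeR on all 18 libraries, adjusted p = 0.824). Across all genes that difference was called for 0 of 18618 genes (0%), with 1107 (5.95%) at an unadjusted p under 0.05.

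Asking which genes stay changed gave few names. At 10 weeks 16 of 17154 genes passed the threshold (0.0933%), and 3156 (18.4%) had an unadjusted p under 0.05, with 10.3% of genes higher and 8.10% lower. The 16 calls were not stable: edgeR called 0 genes when any 1 control was left out and 926 without 10% EtOH replicate 3, DESeq2 called 809 and limma-voom 1978. Groups without overlap made up 12.4% of genes at that time (6.86% with EtOH higher and 5.50% lower), and 51.0% of genes lay above 0 and 49.0% below. Of the 3138 of these that were also tested after cessation, 1544 (49.2%) kept their sign, close to the 48.7% of all genes. The genes with an unadjusted p under 0.05 at both times numbered 17, which is 0.542% of those 3138 genes. They make up 9.83% of the 173 genes with such a p after cessation that were tested at both times. Both shares lay below those over all genes tested, 1.04% after cessation and 18.4% at 10 weeks. Of the 17 genes, 7 had the same sign at both times (Topaz1 higher, and Gbp2, Uba7, Mical2, Tgtp1, Gm4841 and F830016B08Rik lower) and 10 had opposite signs. Of these 10, 9 were higher at 10 weeks and lower after cessation (Fn1, Cd34, Plcg1, Pdpn, Apoc1, Abhd5, Gm31763, H2-T23 and Xlr4a), and Mypop went the other way. A mean log2 CPM of 1 or more at both times left 4 of the 7 same-sign genes.

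Those 4 were Mical2, Topaz1, Gbp2 and Uba7. Mical2 had a log2 fold change of -0.31 after cessation and -0.22 at 10 weeks, and Topaz1 had 0.91 after cessation and 0.56 at 10 weeks. Gbp2, a guanylate-binding GTPase induced by interferon gamma, had -2.06 ± 0.67 after cessation and -0.68 ± 0.29 at 10 weeks. Uba7, the enzyme that activates the ubiquitin-like protein ISG15, had -0.98 ± 0.36 after cessation and -0.43 ± 0.18 at 10 weeks. Leaving out control replicate 1 gave -0.66 for Uba7 after cessation, and leaving out 6% EtOH replicate 1 gave -1.17. For Gbp2 and Uba7 the EtOH and control libraries overlapped after cessation, whereas Mical2 and Topaz1 were among the genes without overlap. At 10 weeks the groups overlapped for all 4 genes. The adjusted p at 10 weeks by edgeR was 0.222 for Mical2, 0.234 for Topaz1, 0.238 for Gbp2 and 0.240 for Uba7.

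The 16 genes past the threshold at 10 weeks were all higher with EtOH then, with a median log2 fold change of 0.60. After cessation their median was 0.09, 10 of the 16 lay above 0 (53.1% of all genes did), and 0 had an unadjusted p under 0.05 or groups without overlap. The shares over all genes were 1.04% for such a p and 0.733% for no overlap. Gpx4, the peroxidase that reduces lipid hydroperoxides, had 121, 176 and 189 CPM in 6% EtOH libraries, 143, 209 and 189 CPM in 10% EtOH libraries, and 193, 168 and 160 CPM in controls after cessation. The controls lay inside the EtOH range, with a log2 fold change of -0.02 ± 0.17. At 10 weeks Gpx4 had 165 to 208 CPM with EtOH (median 180) and 131, 131 and 117 CPM in controls, a log2 fold change of 0.55 ± 0.08 (edgeR, adjusted p = 0.0376).

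The small nuclear RNA gene U1, first of the 16 by p at 10 weeks, had 3501, 1700 and 1895 CPM in 6% EtOH libraries, 180, 858 and 2517 CPM in 10% EtOH libraries, and 6266, 867 and 5737 CPM in controls after cessation. Values within each group spanned several-fold and overlapped, with a log2 fold change of -1.27 ± 0.73. At 10 weeks U1 had 368 to 565 CPM with EtOH (median 444) and 207 to 235 CPM in controls, a log2 fold change of 1.07 ± 0.12. U1 and Gm22973 are small RNAs, U1 with many genomic copies, so their counts depend on how the library and the counting treated such reads.

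**Figure D2:**
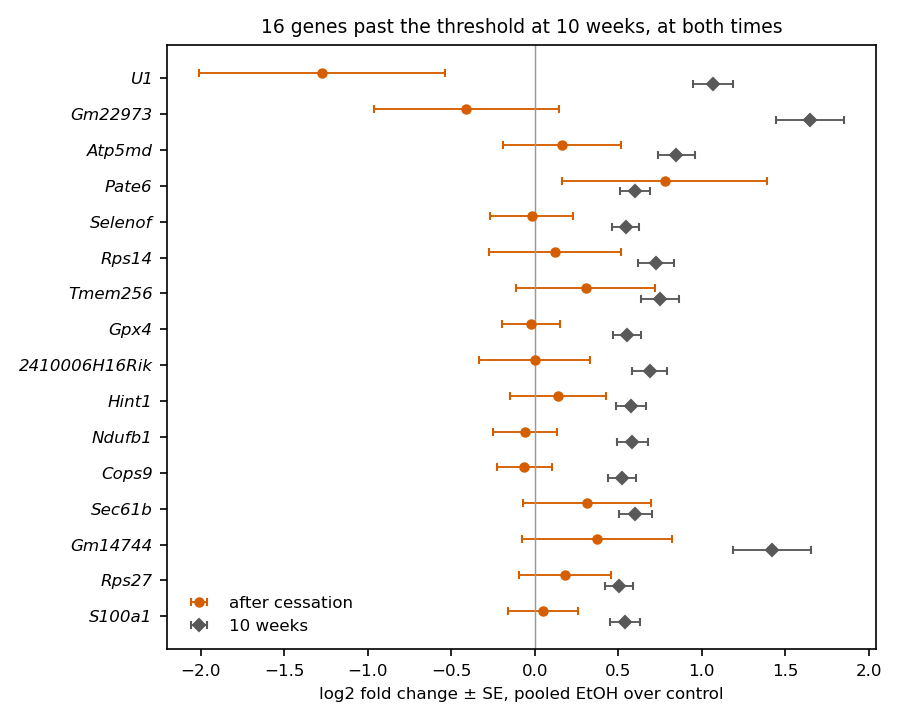
Log2 fold changes of EtOH over control (points, with bars of 1 SE) for the 16 genes past the threshold at 10 weeks, shown after cessation and at 10 weeks. All 16 lie above 0 at 10 weeks with a median of 0.60, and after cessation 10 lie above 0 with a median of 0.09.

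Genes of the interferon response had the median farthest from 0 among the lists with 20 or more tested genes. Among smaller lists, the T and NK cell markers (-0.86, 15 tested) and the B and plasma cell markers (0.72, 5 tested) lay farther from 0. Of the 39 listed interferon genes 38 were tested, all 38 lay lower after EtOH (46.9% of all genes did), and the median log2 fold change was -0.53, beside 0.01 over all genes. None passed the threshold, 6 had an unadjusted p under 0.05 and 0 separated the groups without overlap. The shares over all genes were 1.04% for such a p and 0.733% for no overlap. Promoter stretches are shown only for some genes in which a short element was found, and none is shown for Psmb8 or Tap1, described below. RefSeq promoters (GRCm38.p6, the stretch just before the gene's start) were matched for 28 of the 38 tested genes, and 14 of the 28 (50%) held a pair of GAAA blocks with any 2 bases between them, on either strand, as in an interferon-stimulated response element, beside 978 of 32851 promoters in the table (2.98%). The STAT-type letters TTCNNNGAA were in 8 of the 28 (28.6%) and in 2306 of all promoters (7.02%). A gene was counted if any of its promoters held the letters, whereas the shares over the table count single promoters, so the 2 are not like for like. A match is a description of the sequence and not a tested site. The windows below, 5′ to 3′ on the strand of the gene with the element in capitals (paired TTTC blocks are the same element on the other strand; Gbp3 and Bst2 hold a pair of overlapping matches), belong to genes described next. In GRCm38.p6 they lie at chr3:142620589-142620628 on the plus strand (Gbp2), chr3:142559990-142560029 on the plus strand (Gbp3), chr10:128270261-128270300 on the plus strand (Stat2), chr8:71537572-71537611 on the minus strand (Bst2) and chr17:36032801-36032840 on the minus strand (H2-T23).
Gbp2: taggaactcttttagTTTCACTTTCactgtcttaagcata
Gbp3: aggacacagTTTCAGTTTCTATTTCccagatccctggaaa
Stat2: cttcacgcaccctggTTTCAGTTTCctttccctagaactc
Bst2: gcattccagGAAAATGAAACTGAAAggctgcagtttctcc
H2-T23: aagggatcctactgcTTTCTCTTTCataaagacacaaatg

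Gbp2 had 23.4, 19.9 and 8.54 CPM in 6% EtOH libraries, 5.92, 8.48 and 8.19 CPM in 10% EtOH libraries, and 102, 4.87 and 48.7 CPM in controls. Control replicates 1 and 3 lay above every EtOH library, and control replicate 2 lay below every one of them. The mean was 12.4 ± 7.30 CPM after EtOH (SD, n = 6) and 52.0 ± 48.8 CPM in controls (SD, n = 3), so the SD of the controls was nearly as large as their mean, and without control replicate 1 the log2 fold change of Gbp2 was -1.08. Gbp3, of the same family, had 3.10 to 10.2 CPM after EtOH (median 5.93) and 41.2, 3.08 and 12 CPM in controls, a log2 fold change of -1.56 ± 0.59. The order of the controls was the same as for Gbp2, and without control replicate 1 the log2 fold change of Gbp3 was -0.22.

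Stat2, the interferon-activated transcription factor, had 50.8, 49.1 and 46.1 CPM in 6% EtOH libraries, 46.1, 40.1 and 51.2 CPM in 10% EtOH libraries, and 76.5, 49.3 and 71.3 CPM in controls. Again control replicates 1 and 3 stood above all EtOH libraries and control replicate 2 lay among them, with a log2 fold change of -0.48 ± 0.15. Bst2, the membrane protein tetherin, had 13.6, 15.2 and 7.47 CPM in 6% EtOH libraries, 8.33, 10.5 and 8.26 CPM in 10% EtOH libraries, and 25.2, 9.99 and 22.2 CPM in controls, a log2 fold change of -0.85 ± 0.31. Ido1, a tryptophan-degrading enzyme that is abundant in the caput, had 310 to 537 CPM after EtOH (median 473) and 1289, 431 and 359 CPM in controls, with control replicate 1 alone above the EtOH range. The log2 fold change of Ido1 was -0.65, and 0.16 without control replicate 1.

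Antigen processing genes followed the same library pattern; they were chosen after their values were seen, as were Stat2, Bst2, Uba7 and the GTPase genes below. Psmb8, a catalytic subunit of the immunoproteasome, had 12.2, 12.1 and 8.35 CPM in 6% EtOH libraries, 7.64, 8.08 and 11.3 CPM in 10% EtOH libraries, and 41.8, 8.14 and 20.9 CPM in controls, a log2 fold change of -1.24 ± 0.38. Tap1, a subunit of the peptide transporter that loads MHC class I, had 21.2, 29.7 and 20.9 CPM in 6% EtOH libraries, 18.8, 22.2 and 22.7 CPM in 10% EtOH libraries, and 84.4, 18 and 35.7 CPM in controls, a log2 fold change of -1.03 ± 0.36. In both genes control replicate 2 was at or near the bottom of the EtOH range. Without control replicate 1 the log2 fold change was -0.53 for Psmb8 and -0.23 for Tap1. H2-T23, the non-classical class I molecule that NK cell receptors read, had 41.2 to 71.9 CPM after EtOH (median 47.6) and 91.2, 60.0 and 77.7 CPM in controls (log2 fold change -0.54 ± 0.20), but lay higher with EtOH at 10 weeks (0.31 ± 0.13, adjusted p = 0.222 by edgeR). Psmb8 showed a log2 fold change of 0.07 at 10 weeks, and Stat2 one of 0.00.

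Immunity-related GTPases and their relatives were measured beside these genes. F830016B08Rik, an annotated gene of this GTPase family, had the smallest p of all genes tested by edgeR, and had 1.23, 2.65 and 1.26 CPM in 6% EtOH libraries, 0.551, 1.02 and 1.97 CPM in 10% EtOH libraries, and 54.2, 0.863 and 5.64 CPM in controls. Its log2 fold change of -3.79 ± 0.89 rested largely on control replicate 1, and without that library it was -1.13. Iigp1, a GTPase that acts on the vacuoles of intracellular parasites, had 11.9, 34.8 and 10.1 CPM in 6% EtOH libraries, 5.78, 12.5 and 9.17 CPM in 10% EtOH libraries, and 198, 4.32 and 52.9 CPM in controls, a log2 fold change of -2.60 ± 0.80. The lowest and the highest value of Iigp1 were both in controls, and without control replicate 1 its log2 fold change was -0.99. BC023105, Gm4841 and Tgtp1 had log2 fold changes of -3.18, -3.44 and -2.71 with the same order of controls, and without control replicate 1 the values were -1.04, -1.29 and -1.43. BC023105 and Gm4841 belong to 1 family of similar genes and Tgtp1 has a close copy, so reads can be split among such genes and their counts are uncertain.

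Cxcl9, a chemokine that interferon gamma induces to attract T cells, is the 39th listed gene and was not tested because its counts passed the low-count filter in too few libraries; it is named after its values were seen. It had 8, 8 and 6 counts in 6% EtOH libraries, 10, 8 and 9 counts in 10% EtOH libraries, and 363, 10 and 74 counts in controls, or 0.543 to 0.688 CPM after EtOH and 22.2, 0.616 and 5.15 CPM in controls. The 6 EtOH libraries were almost equal, control replicate 2 lay among them, and only control replicates 1 and 3 were high. At 10 weeks Cxcl9 had 0.224 to 4.25 CPM with EtOH and 1.73, 0.217 and 1.33 CPM in controls, with wide overlap.

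**Figure D3:**
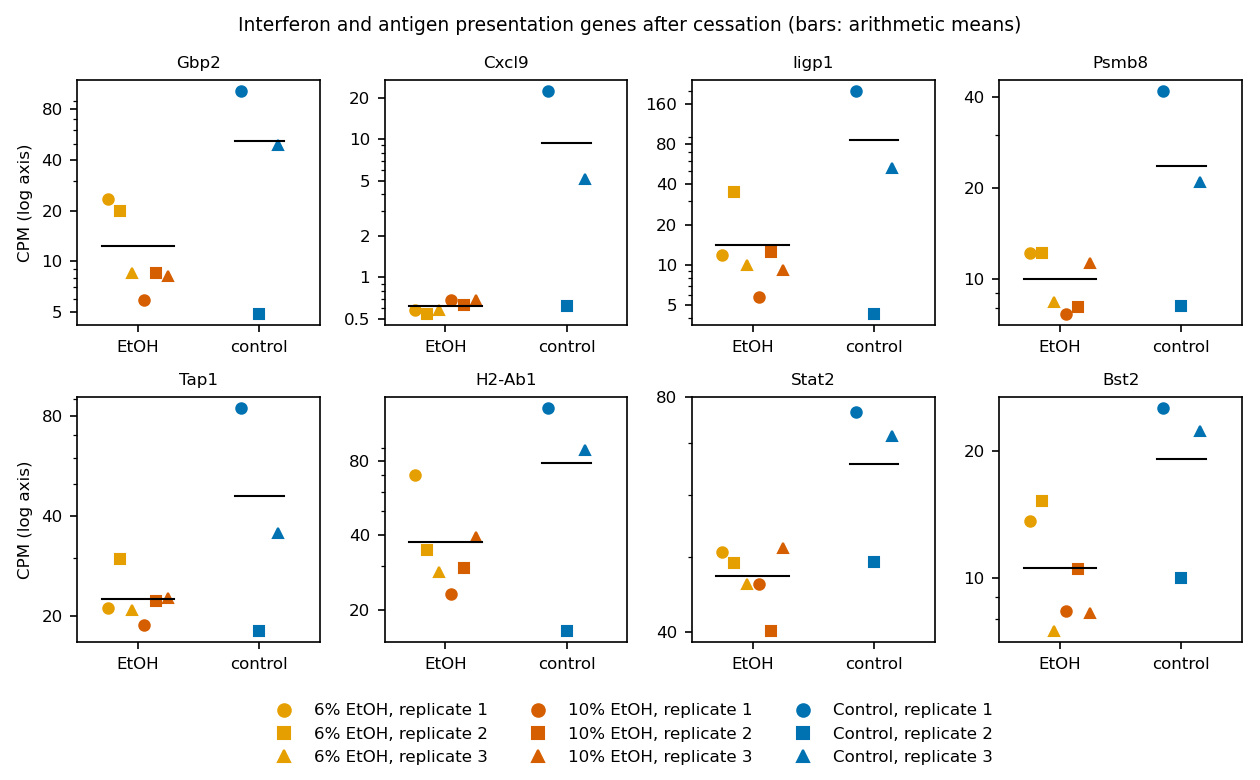
CPM per library on a log axis for Gbp2, Cxcl9, Iigp1, Psmb8, Tap1, H2-Ab1, Stat2 and Bst2 after cessation, EtOH left of control (points are libraries, coloured by dose; black bars are means). Control replicates 1 and 3 lie above every EtOH library in each panel. Control replicate 2 lies within the EtOH range or below it, for example below it at 4.87 CPM for Gbp2. The panels show chosen genes. Over the 38 tested interferon genes, control replicate 1 lay above every EtOH library in 29 and control replicate 3 in 23.

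The pattern held over the list as a whole. Among the 38 tested genes, control replicate 1 lay above every EtOH library in 29 (76.3%) and control replicate 3 in 23 (60.5%), whereas control replicate 2 did so in 0 and lay below every EtOH library in 19 (50%). Over all genes tested the corresponding shares above every EtOH library were 8.74% for control replicate 1, 18.9% for control replicate 3 and 8.47% for control replicate 2, and control replicate 2 lay below every EtOH library in 16%. The list's mean level, as log2 CPM centred on each gene's mean, was 0.37, 0.14 and -0.34 in 6% EtOH libraries, -0.57, -0.19 and -0.25 in 10% EtOH libraries, and 1.0, -0.81 and 0.63 in controls. The lowest and the highest of the 9 libraries were both controls. The median log2 fold change was -0.39 for 6% EtOH and -0.78 for 10% EtOH. Without control replicate 1 it was -0.20, without control replicate 2 it was -0.89 and without control replicate 3 it was -0.47. At 10 weeks the list's median was 0.09, with 22 of 39 genes above 0, and 9 of 39 genes had an unadjusted p under 0.05 for the difference between the times (5.95% of all genes did).

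MHC class II genes, which present peptides to helper T cells, followed the same libraries in part. Control replicate 1 lay above every EtOH library in 9 of the 10 tested genes and control replicate 3 in 5. Control replicate 2 lay below every EtOH library in 4 and above every one in 2. All 10 tested genes of 12 lay lower after EtOH, with a median log2 fold change of -0.52 (-0.36 for 6% EtOH and -0.77 for 10% EtOH). H2-Ab1, a class II beta chain, had 69.8, 34.7 and 28.3 CPM in 6% EtOH libraries, 23.1, 29.5 and 39.3 CPM in 10% EtOH libraries, and 130, 16.3 and 88.7 CPM in controls, a log2 fold change of -1.07 ± 0.50. Control replicates 1 and 3 were the 2 highest libraries and control replicate 2 the lowest, and without control replicate 1 the log2 fold change of H2-Ab1 was -0.47. H2-DMa, which helps to load peptide on class II molecules, was the member with an unadjusted p under 0.05, at 15.5 to 22.2 CPM after EtOH (median 17.8) and 19.7 to 28.1 CPM in controls (log2 fold change -0.42 ± 0.16). Among all genes tested, 1.04% had such a p. Cd74, the invariant chain, had 63.7 to 210 CPM after EtOH (median 79.4) and 251, 38.3 and 201 CPM in controls, which lay on both sides of the EtOH range or within it. Its log2 fold change was -0.72, and -0.25 without control replicate 1. Leaving out 1 library at a time moved the list's median between -0.91 and -0.26.

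Markers of T, NK and myeloid cells were measured beside these genes, since such cells respond to interferon or carry class II. Of 21 T and NK cell markers 15 were tested and 13 lay lower after EtOH, with a median log2 fold change of -0.86. Gzmb, a cytotoxic granule protease, had 0.388 to 2.18 CPM after EtOH (median 1.2) and 8.70, 0.986 and 2.02 CPM in controls, and Cd8a, the co-receptor of cytotoxic T cells, had 0.152 to 1.02 CPM after EtOH and 3.68, 0.370 and 1.32 CPM in controls. The log2 fold change of Gzmb was -1.64, and -0.26 without control replicate 1; that of Cd8a was -1.40, and -0.30 without it. Control replicate 1 was the highest library for both Gzmb and Cd8a. It lay above every EtOH library in 11 of the 15 tested genes, and without it the list's median was -0.11. The summed level of the 21 markers was 116 to 364 CPM after EtOH and 126 to 429 CPM in controls, most of it from 1 gene, Klrb1c. Cd3e was above 0 in all 9 libraries, while Cd3d, Cd5, Cd247, Cd8b1, Nkg7 and Klrd1 were at 0 in at least 1, so that between 0 and 3 of the 21 markers were at 0 per library.

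Of 20 macrophage markers all were tested, 18 lay lower after EtOH and the median was -0.27. Their summed level was 338 to 617 CPM after EtOH and 329 to 751 CPM in controls, and none was at 0 in any library. Lyz2, the lysozyme of macrophages, had 115, 54.0 and 51.5 CPM in 6% EtOH libraries, 45.5, 60.7 and 97.3 CPM in 10% EtOH libraries, and 147, 53.9 and 101 CPM in controls. Control replicate 1 lay above every EtOH library for 13 of the 20 markers, and without it the list's median was 0.05. At 10 weeks all 20 lay higher with EtOH, with a median of 0.34. The part that immune cells or the single control libraries have in the interferon result was not tested. The B and plasma cell genes went the other way: 5 of 15 were tested, all 5 lay higher after EtOH, and Igkc had 3.78, 1.56 and 3.59 CPM in 6% EtOH libraries, 0.826, 13.6 and 9.17 CPM in 10% EtOH libraries, and 1.65, 2.22 and 1.95 CPM in controls, with the high values in 10% EtOH replicates 2 and 3.

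**Figure D4:**
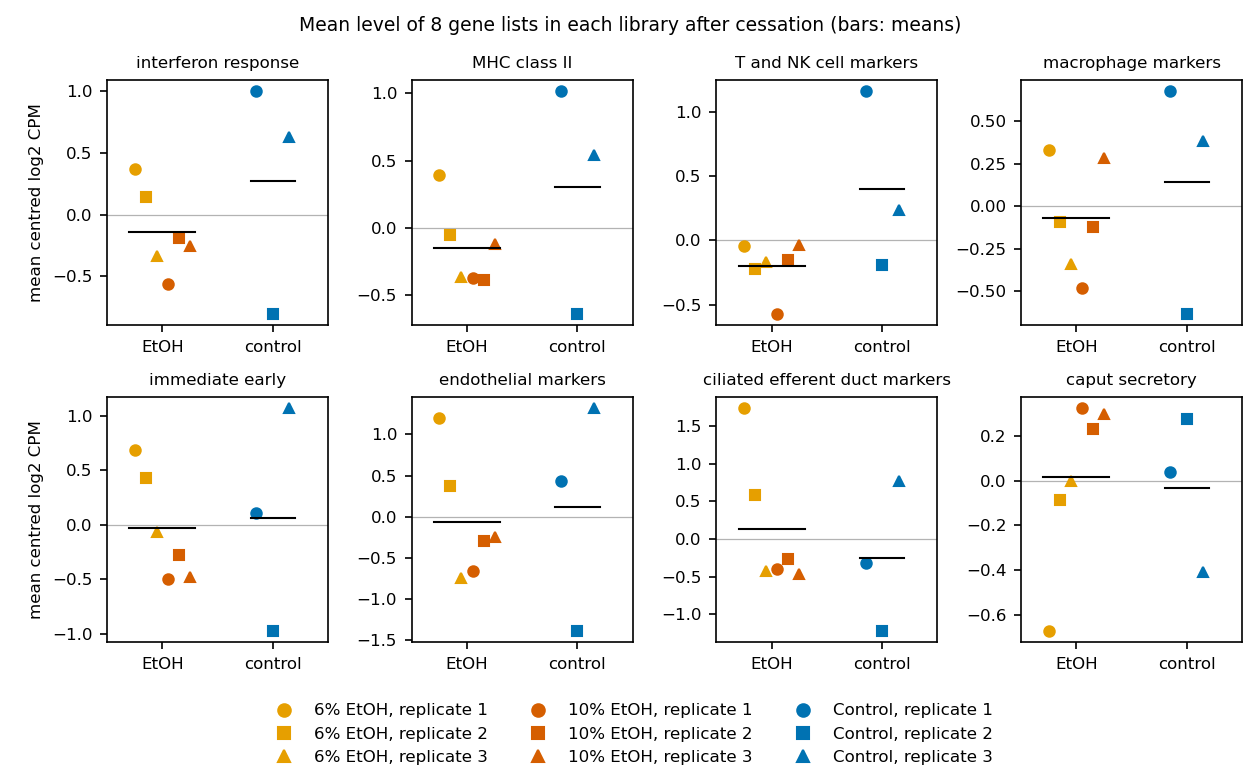
Mean centred log2 CPM of 8 gene lists in each of the 9 cessation libraries, EtOH left of control (points are libraries, coloured by dose; bars are means). For the interferon list the highest and lowest libraries are controls (1.0 and -0.81), and for the ciliated efferent duct markers the highest is 6% EtOH replicate 1 (1.74).

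Lists for the wall and vessels of the duct also lay lower after EtOH, and single controls moved their medians. Of 34 fibroblast and matrix genes 32 lay lower, with a median log2 fold change of -0.21, and Fn1 was the member with an unadjusted p under 0.05 and without overlap. Over all genes 1.04% had such a p and 0.733% were without overlap. Control replicate 2 lay below every EtOH library in 28 of the 34 genes, while control replicates 1 and 3 lay above every EtOH library in 11 and 12 genes, and without control replicate 3 the median was 0.02. Thbs1, thrombospondin-1, had 178, 81.6 and 42.7 CPM in 6% EtOH libraries, 19.8, 44.0 and 35.6 CPM in 10% EtOH libraries, and 199, 13.4 and 217 CPM in controls, with a log2 fold change of -1.10, or -0.68 without control replicate 3. At 10 weeks 30 of the 34 lay higher with EtOH, with a median of 0.23. Of 16 tested smooth muscle markers 15 lay lower (median -0.31, and 0.29 at 10 weeks). Control replicate 3 lay above every EtOH library in 11 of the 16 and control replicate 2 below every one in 12. The smooth muscle median was 0.14 without control replicate 3 and -0.74 without control replicate 2.

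Endothelial markers were split by control replicates 2 and 3 as well. Of 17 genes 16 lay lower, with a median of -0.41, which was 0.05 for 6% EtOH and -1.06 for 10% EtOH. Cdh5, VE-cadherin of endothelial junctions, had 53.1, 26.3 and 15.3 CPM in 6% EtOH libraries, 13.4, 19.3 and 14.9 CPM in 10% EtOH libraries, and 37.2, 8.69 and 53.4 CPM in controls, with a log2 fold change of -0.48, or 0.04 without control replicate 3. The 6% EtOH replicate 1 and control replicate 3 were alike and high, and control replicate 2 was lowest, below every EtOH library in 15 of the 17 markers. Control replicate 3 lay above every EtOH library in 12, and without it the median was 0.26. Without 6% EtOH replicate 1 the median was -0.83. All 13 basal cell markers lay lower, with a median of -0.39 (-0.11 for 6% EtOH and -0.94 for 10% EtOH). Control replicate 3 lay above every EtOH library in 12 of the 13, the other controls in 1 each, and without control replicate 3 the basal median was -0.08.

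Multiciliated cells line the efferent ducts, which join the testis to the caput. Of 20 ciliated cell genes 18 lay higher after EtOH, with a median log2 fold change of 0.49, but the doses differed in sign (1.11 for 6% EtOH and -0.38 for 10% EtOH). At 10 weeks 19 of the 20 lay lower with EtOH, with a median of -0.55. Dnah9, a motor protein of ciliary arms, had 51.4, 14.5 and 4.17 CPM in 6% EtOH libraries, 7.09, 7.14 and 7.73 CPM in 10% EtOH libraries, and 5.33, 2.22 and 14.8 CPM in controls, with a log2 fold change of 1.05, or 0.15 without 6% EtOH replicate 1. The summed level of the 20 genes was 504, 198 and 96.3 CPM in 6% EtOH libraries, 96.1, 97.2 and 99.5 CPM in 10% EtOH libraries, and 98.0, 54.2 and 224 CPM in controls, with none at 0. 6% EtOH replicate 1 stood apart, and without it the median was -0.13. Iqcg was highest in the same library; without it the log2 fold change of Iqcg was 0.74, and the part of ciliated cells in the differences of Iqcg, Tmem231 and Fam161b was not tested.

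Stress and early response genes were spread widely between libraries of the same group. Of 37 tested immediate early genes 29 lay lower after EtOH, with a median of -0.19 (0.04 for 6% EtOH and -0.57 for 10% EtOH), and leaving out control replicate 3 turned the median to 0.33. Fos, the AP-1 subunit induced within minutes, went against the list at 167, 149 and 116 CPM in 6% EtOH libraries, 117, 75.6 and 91.4 CPM in 10% EtOH libraries, and 60.8, 41.1 and 125 CPM in controls. Maff, a small Maf factor, had 53.9, 37.9 and 21.6 CPM in 6% EtOH libraries, 5.99, 18.1 and 10.8 CPM in 10% EtOH libraries, and 44.0, 6.35 and 122 CPM in controls. Control replicate 3 lay above every EtOH library in 26 of the 37 genes and control replicate 2 below every one in 21.

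The integrated stress response, which raises Atf4 when translation is curbed, had 23 of 31 genes lower after EtOH with a median of -0.14. Trib3, a pseudokinase target of ATF4, had 5.37, 1.70 and 0.582 CPM in 6% EtOH libraries, 1.31, 1.41 and 1.06 CPM in 10% EtOH libraries, and 7.6, 0.616 and 17.3 CPM in controls (log2 fold change -2.14 ± 0.80). Chac1, which degrades glutathione, had 2.96 to 8.57 CPM after EtOH and 9.19, 3.76 and 22.4 CPM in controls (-1.33 ± 0.50). Control replicate 3 was the highest library for both, and control replicate 2 lay within the low EtOH values or near them. Without control replicate 3 the log2 fold change was -1.11 for Trib3 and -0.49 for Chac1. Hmox1, the haem-degrading enzyme of the oxidative stress response, had 48.4, 38.9 and 13.6 CPM in 6% EtOH libraries, 5.85, 8.55 and 7.05 CPM in 10% EtOH libraries, and 39.5, 5.30 and 86.6 CPM in controls, which again lay on both sides of the EtOH range or within it. Over the 38 antioxidant genes 22 lay higher and 16 lower, with a median of 0.04.

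The title of the series names mitochondria and noncoding RNA, and lists for both were measured. Of 12 tested genes encoded in mitochondrial DNA 10 lay higher after EtOH, with a median of 0.22, but the doses went apart (-0.23 for 6% EtOH and 0.55 for 10% EtOH). Subunit 4 of complex I, mt-Nd4, had 1159, 743 and 2564 CPM in 6% EtOH libraries, 859, 3271 and 3083 CPM in 10% EtOH libraries, and 2023, 1430 and 1381 CPM in controls. The lowest and the highest libraries were both in the EtOH group, and the controls lay between them. The list's median was -0.04 without 10% EtOH replicate 2 and 0.44 without control replicate 1. At 10 weeks all 12 lay higher with EtOH, with a median of 0.72. Nuclear-encoded subunits of complex I (28 of 38 above 0, median 0.04) and of complexes II to V (25 of 42, median 0.02) and the mitochondrial ribosome (47 of 76, median 0.05) stayed within 0.06 of 0 after cessation, where 53.1% of all genes lay above 0; at 10 weeks their medians were 0.17, 0.13 and 0.14.

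Genes of small RNA biogenesis had a median of 0.02, with 16 of 29 above 0 and 0 at an unadjusted p under 0.05. Among all genes tested, 1.04% had such a p. Dicer1, which cuts microRNA precursors, had 102, 85.8 and 134 CPM in 6% EtOH libraries, 127, 127 and 119 CPM in 10% EtOH libraries, and 102, 113 and 80.9 CPM in controls. The groups overlapped, and the median of the list at 10 weeks was -0.11. The 28 tested genes of the extracellular vesicle pathway were evenly divided (13 above 0 and 15 below, median -0.00). Among the 20 tested genes of ethanol and aldehyde metabolism 12 lay lower, with a median of -0.03, and Adh5, the class III alcohol dehydrogenase, had 119 to 190 CPM after EtOH and 160, 159 and 117 CPM in controls.

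Secretory genes of the caput had no stable direction. Of 32 tested caput secretory genes 22 lay higher after EtOH, with a median of 0.09 (-0.06 for 6% EtOH and 0.24 for 10% EtOH; 0.33 at 10 weeks), and their summed level was 57489 to 113354 CPM after EtOH and 56572 to 119528 CPM in controls. The median was 0.37 without control replicate 2 and -0.04 without control replicate 3. Cuzd1, a secreted CUB-domain protein, had 1145, 2025 and 2877 CPM in 6% EtOH libraries, 2869, 2817 and 2648 CPM in 10% EtOH libraries, and 1945, 2583 and 1211 CPM in controls. The 2 lowest were 6% EtOH replicate 1 and control replicate 3, the libraries with the most endothelial and ciliated transcripts. Among 30 beta-defensin and Spag11 genes 21 lay higher (median 0.11, with -0.20 for 6% EtOH and 0.33 for 10% EtOH). Leaving out 10% EtOH replicate 3 gave a median of -0.03, and leaving out control replicate 2 gave 0.25. In this family Defb35 was the member without overlap, at 1.29 to 2 CPM after EtOH (median 1.55) and 0.980, 1.11 and 0.836 CPM in controls (log2 fold change 0.73 ± 0.34, unadjusted p 0.057 by edgeR). Over all genes 0.733% were without overlap. The mean log2 CPM of Defb35, 0.63, lay below the 1 required of the genes described first. Among adipocyte markers 9 of 12 lay higher, and Cfd, the adipsin secreted by fat cells, had 0.871, 6.52 and 2.72 CPM in 6% EtOH libraries, 0, 0.471 and 2.65 CPM in 10% EtOH libraries, and 0, 0.185 and 0.0697 CPM in controls (an unadjusted p under 0.05).

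**Figure D5:**
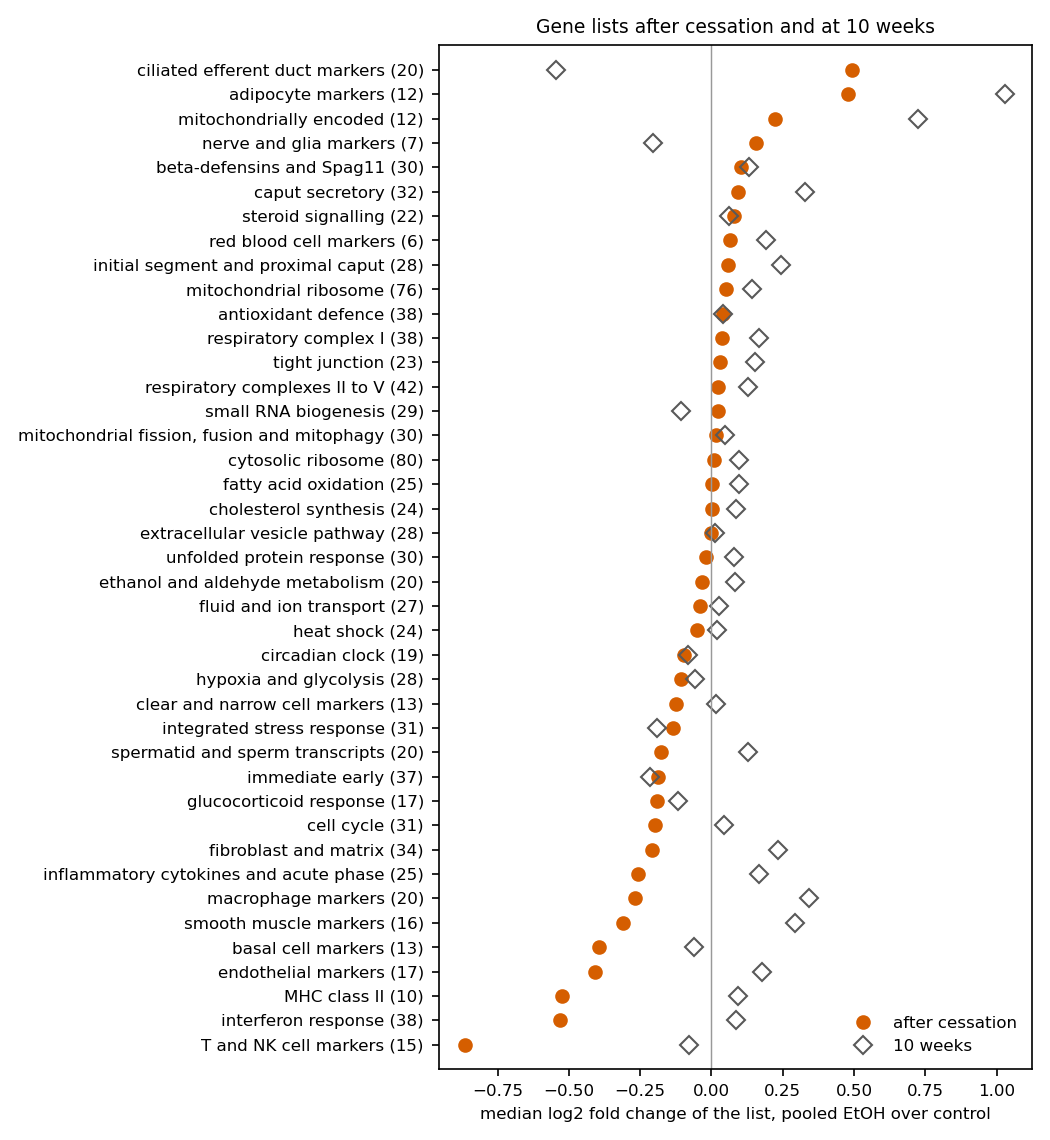
Median log2 fold change of EtOH over control for the gene lists with at least 5 tested members at both times (number tested after cessation in brackets), after cessation (filled) and at 10 weeks (open diamonds). The B and plasma cell list (median 0.72 after cessation) had 2 tested members at 10 weeks and is not shown. The interferon (-0.53), MHC class II (-0.52) and T and NK cell (-0.86) lists lie lowest after cessation, and most wall and immune lists lie above 0 at 10 weeks.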

How the data were processed

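Total RNA of the caput epididymis, extracted with a Qiagen RNeasy kit per the labels, was sequenced as 18 libraries in 6 groups of 3. The authors deposited raw read counts per gene, 1 table per library; per the submitters' processing notes the tools were Trimmomatic, STAR and featureCounts on GRCm39 (mm39). Their versions, the strand setting and the treatment of multi-mapping reads are not stated, so counts of antisense, overlapping or multicopy genes are uncertain. All tables list the same 53819 genes by symbol, 1442 of them by Ensembl ID, and 0 tables were left unmapped. The column header of 6% EtOH cessation replicate 1 names another animal than the sample's title, and the deposited assignment was used.

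Counts were tested in R 4.3.3 with edgeR 4.0.16 (robust quasi-likelihood test, TMM scaling, filterByExpr with a minimum count of 10 and a minimum total of 15), with 1 term for pooled EtOH against control, two-sided, Benjamini-Hochberg adjustment over all genes tested and a threshold of 0.05. Tested genes held at least 99.68% of each library's counts. The difference between the times was the interaction contrast in all 18 libraries. Levels are CPM on TMM-scaled library sizes, and log2 CPM used a prior count of 2. Alternatives were edgeR's RLE size factors, the test of DESeq2 1.42.0, limma 3.58.1 (voom with sample quality weights), 2 other low-count filters, 1 term per dose, all 18 libraries and leaving out each library. The scripts were tested on simulated counts.

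As fewer than 5 genes passed, the rule named the 10 higher and 10 lower genes with the smallest p among those without overlap whose mean log2 CPM was 1 or more, up to 4 genes per list by p, and genes with an unadjusted p under 0.05 and the same sign at both times. The comparison and the gene lists were chosen with earlier results of these data known. Replicates differed by more than counting noise (lowest chi-square per degree of freedom between replicates 5.35). Sequences are from RefSeq, GRCm38.p6; no coordinate of the counted build is given.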

Additional observations from a re-analysis of the deposited data

Results flagged for a closer look

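Over the same 6 EtOH libraries, 92 genes or lists were examined, and in 14 of them 1 library stood far from the other 5. For independent, normally spread values chance alone marks about 1 in 20. These genes and lists share their libraries and are not independent, so the 14 cannot be set against that rate. In 6% EtOH replicate 1, Iqcg was high at 14.1 CPM, Uba7 was high at 14.6 CPM and Cops9 was low at 84.6 CPM. The same library had the lowest mean centred log2 CPM of the mitochondrial ribosome list (-0.24), the complex I list (-0.29) and the list of complexes II to V (-0.27). In 6% EtOH replicate 2, 5 interferon-responsive genes were high, with 7.19 CPM for BC023105, 5.50 CPM for Gm4841, 34.8 CPM for Iigp1, 6.65 CPM for Tgtp1 and 29.7 CPM for Tap1. In 6% EtOH replicate 3 the nerve and glia list was lowest at -0.27. In 10% EtOH replicate 1, Tmem231 was high at 29.9 CPM and the T and NK cell list was lowest at -0.57.

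Fn1 differed between the times, with a log2 fold change of -0.46 after cessation and 0.32 at 10 weeks. Groups did not overlap at either time and moved in opposite directions; the test of the difference with edgeR gave an adjusted p of 0.824 over all genes.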

How the results depend on the processing

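The count of 0 genes past the threshold after cessation was also 0 with RLE size factors, no low-count filter, a stricter filter, DESeq2, voom with quality weights, all 18 libraries and 1 term per dose. It was between 0 and 1 when each library was left out. The 1 gene was Cxcl9, without control replicate 2, which enters the test only because that low control is gone. Genes at an unadjusted p under 0.05 numbered 94 to 930 with 1 library left out (930 without control replicate 2). For the 10-week count of 16, the alternatives gave 513 without a low-count filter, 809 with DESeq2, 1978 with voom, 0 in all 18 libraries and 85 with 1 term per dose, and between 0 and 926 with 1 library left out: it was 0 when a control or 6% EtOH replicate 2 was dropped, 163 when 6% EtOH replicate 1 was, and 926 when 10% EtOH replicate 3 was. The difference between the times was called for 265 genes with voom and 0 otherwise. Signs of gene values were compared for the cessation comparison only, where the main fit called no gene. With 1 library left out, 64 gene values, none of them called, changed sign and 1876 did not, and 10 list medians moved by more than the spread between libraries and 368 did not. Under the other settings 12 such gene values changed sign and 1498 did not, and 5 list medians moved and 289 did not. The causes were not tested.

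No paired analysis was possible because the labels give animal identifiers and no replicate numbers shared between groups. The biological coefficient of variation among the 3 controls after cessation was 35.0%.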
